A study of Mus musculus with 35 samples.

Results

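The lineage transcription factors of microglia are the 9 genes Sall1, Spi1, Irf8, Mef2a, Mef2c, Runx1, Maf, Cebpa and Bhlhe41, chosen by name and followed through 35 libraries of sorted mouse microglia. All 9 of the 9 were found among the 21236 genes of the count table. The libraries came from the midbrain, the striatum and the prefrontal cortex (PFC) of 6 male and 6 female adult mice, with 12 midbrain, 12 striatum and 11 PFC libraries, because the PFC of male mouse 3 was lost. Every mouse was Tmem119-2A-CreERT2/ Ai14(RCL-tdTomato)-D and had received tamoxifen, so no library came from an untreated mouse or from one without the transgenes. The red label was made where the Tmem119 promoter drove the Cre when tamoxifen was given. Only cells sorted as positive for the label were sequenced, so the levels below describe the labelled cells only. Microglia without TMEM119 at that time could be missing. The questions were whether these regulators differed between the regions of one brain and between the sexes.

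Microglia descend from myeloid progenitors of the yolk sac that settle in the brain before birth. Spi1 encodes PU.1, an ETS factor that opens the enhancers of macrophages, and IRF8, RUNX1 and C/EBP-alpha work with it in forming the lineage. The MEF2 factors, MAF and BHLHE41 act in mature macrophages. SALL1, a zinc finger repressor, is the member that sets microglia apart from the other macrophages of the body and that keeps them in their resting state, and its loss gives microglia traits of activated macrophages.

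The 9 genes lay on chromosomes 2 (Spi1), 6 (Bhlhe41), 7 (Mef2a and Cebpa), 8 (Sall1, Irf8 and Maf), 13 (Mef2c) and 16 (Runx1). In GRCm38, Sall1 (ENSMUSG00000031665) spanned chr8:89027235-89044162 on the minus strand and Irf8 (ENSMUSG00000041515) chr8:120736358-120756694 on the plus strand. Mef2c (ENSMUSG00000005583) spanned chr13:83504034-83667080 on the plus strand, and Maf (ENSMUSG00000055435) chr8:115682942-115707794 on the minus strand. RefSeq start sites on GRCm38.p6 were matched for 7 members (all but Spi1 and Maf), with 13 windows in all, since 4 of the genes have more than 1 start. The 250 bases before the first start are printed below for Sall1, Irf8 and Mef2c, which differed between regions, and for Mef2a, the paralog of Mef2c that did not pass that test, with matches to 6 short motifs in capitals. The motifs, searched on both strands, were GAGGAA (the core bound by PU.1), CACGTG (an E-box of the kind BHLHE41 binds), TGTGGT (RUNX), TGCTGA (part of a MAF element), an IRF element (GAAA repeated after 2 free bases) and a MEF2 element (CTA and TAG with 4 free bases between them).
Sall1 promoter, chr8:89044163-89044412, minus strand: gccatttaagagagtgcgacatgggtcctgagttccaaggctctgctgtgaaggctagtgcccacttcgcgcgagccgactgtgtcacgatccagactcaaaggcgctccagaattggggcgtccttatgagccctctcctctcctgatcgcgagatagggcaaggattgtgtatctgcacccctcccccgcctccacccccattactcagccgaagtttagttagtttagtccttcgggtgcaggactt
Irf8 promoter, chr8:120736108-120736357, plus strand: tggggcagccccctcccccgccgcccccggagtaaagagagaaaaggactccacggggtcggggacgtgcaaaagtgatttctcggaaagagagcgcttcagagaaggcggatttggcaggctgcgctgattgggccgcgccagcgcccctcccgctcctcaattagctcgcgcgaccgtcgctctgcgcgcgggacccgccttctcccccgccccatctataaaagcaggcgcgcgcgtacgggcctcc
Mef2c promoter, chr13:83503784-83504033, plus strand: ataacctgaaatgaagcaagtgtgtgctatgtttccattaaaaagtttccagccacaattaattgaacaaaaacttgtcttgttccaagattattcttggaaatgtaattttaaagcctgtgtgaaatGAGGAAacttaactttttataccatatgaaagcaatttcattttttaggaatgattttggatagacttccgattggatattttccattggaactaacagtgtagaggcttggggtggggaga
Mef2a promoter, chr7:67372859-67373108, minus strand: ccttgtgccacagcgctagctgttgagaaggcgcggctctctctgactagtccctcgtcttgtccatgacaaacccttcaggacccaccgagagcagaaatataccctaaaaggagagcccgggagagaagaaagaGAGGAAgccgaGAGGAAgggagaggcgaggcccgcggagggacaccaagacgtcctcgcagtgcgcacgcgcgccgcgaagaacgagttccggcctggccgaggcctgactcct
GAGGAA stood in 4 of the 13 windows, in 2 windows of Mef2c and in 1 of Runx1, and at 2 places before Mef2a, while 23.3% of all 32851 promoters of this length held it. CACGTG stood in 1 window of Runx1 and in that of Bhlhe41, 2 of 13 against 6.02% of all promoters. TGCTGA stood in 2 windows, the second of Irf8 and the third of Mef2c, against 16.1%. TGTGGT, the IRF element and the MEF2 element, held by 14.0%, 2.98% and 3.2% of all promoters, stood in 0 of the 13 windows. The printed window of Sall1 was 56.4% G and C, that of Irf8 67.2%, that of Mef2a 61.6% and that of Mef2c 33.6%. A match of letters says only that they are there, and none of these windows was measured for binding.

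Sequencing was deep for all members. Total counts per library ran from 37680501 to 54131421, and 3 counts equalled 0.0561 to 0.0789 CPM, the unit of counts scaled to library size with TMM factors, a limit that covers counting error only since the cDNA was amplified by PCR without molecular identifiers. The members' own counts ran from 1186, for Bhlhe41 in its lowest library, to 60619 for Irf8 in its highest, and no member was at 0 in any library. The microglia markers Tmem119, P2ry12 and Cx3cr1 were above 0 in 35 of 35 libraries. The striatum library of male mouse 3 stood apart in its labelling: its column in the count table is named as PFC, while its sample label with the same library number gives the striatum. It was kept as striatum, and it was the lowest striatum library for Irf8 and Spi1 and the highest for Sall1, Mef2a, Mef2c and for the neuron markers, so the regional results of Sall1, Irf8 and Mef2c are also given without it.

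Spi1 and Irf8 were the most abundant members per kilobase of annotated exon. Levels between genes were compared as RPKM, the TMM-scaled CPM divided by the kilobases of exon. The length was the union of all annotated exons (2695 bases for Spi1, 7055 for Irf8), not that of the transcripts expressed. The order of genes below depends on that choice. In CPM, with no division by length, Irf8 averaged 999.4, Mef2c 553.7 and Spi1 516.4. Spi1 stood at 191.6 ± 18.7 RPKM (SD, n = 35) and Irf8 at 141.7 ± 12.3 (n = 35), with Spi1 above Irf8 in 35 of 35 libraries. Cebpa (41.8 ± 6.94), Sall1 (36.8 ± 5.70) and Mef2c (35.2 ± 3.52 RPKM) formed the next tier. Their order differed between regions. Sall1 lay above Mef2c in 12 of 12 striatum libraries, 6 of 11 PFC libraries and 4 of 12 midbrain libraries. Cebpa lay above Sall1 in 10 of 12 midbrain, 8 of 11 PFC and 6 of 12 striatum libraries. Mef2a followed at 24.7 ± 3.58 RPKM, below Mef2c in 35 of 35 libraries, and Maf at 20.5 ± 4.33 RPKM lay below Mef2a in 30 of 35. Runx1 at 7.89 ± 0.743 RPKM and Bhlhe41 at 7.51 ± 2.09 RPKM were the lowest, and Runx1 lay above Bhlhe41 in 22 of 35. Bhlhe41 varied most between libraries for its level, with a coefficient of variation of 27.8%, and Irf8 least, with 8.65%.

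**Figure D1:**
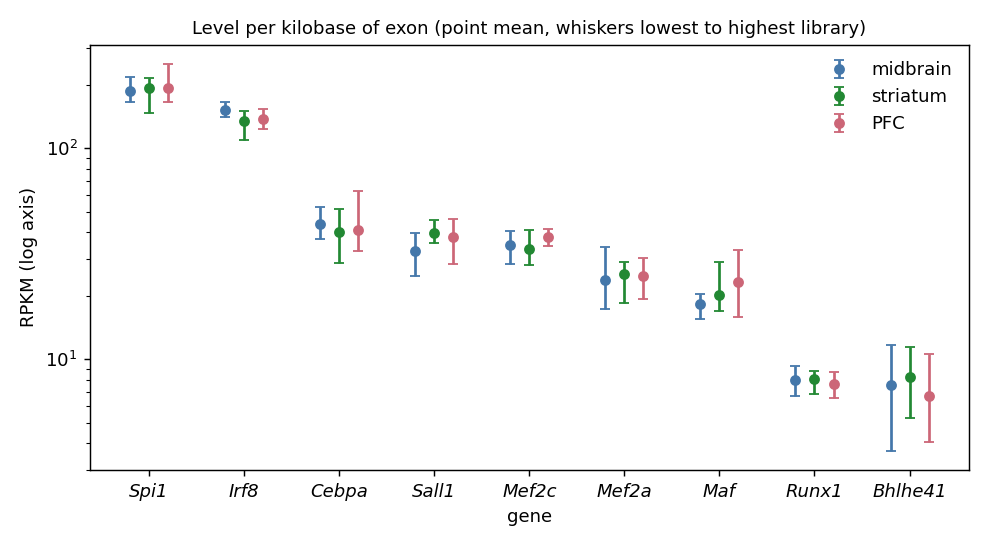
Level of each member in RPKM on a log axis, in midbrain (12 libraries), striatum (12) and PFC (11); points are means and whiskers run from the lowest to the highest library. Spi1 and Irf8 sit highest, at 191.6 and 141.7 RPKM over all libraries, and Runx1 and Bhlhe41 lowest, at 7.89 and 7.51.

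In all, 4 members, Sall1, Irf8, Mef2c and Maf, exhibited a main effect of brain region. This was 4 of 9 at an adjusted p under 0.05 (edgeR quasi-likelihood F-test, Benjamini-Hochberg over 21236 genes), against 8.89% of all genes tested and 14.6% of the 3263 genes at least as abundant as Bhlhe41. Spi1, Mef2a, Runx1, Cebpa and Bhlhe41 did not pass, with adjusted p-values from 0.511 to 0.831. The differences were small. By the post hoc rule used here (a region effect, a p under 0.05, taken unadjusted, and a fold change over 1.2), Sall1 was higher in striatum than in midbrain and Maf higher in PFC than in midbrain, 1 of 9 members in each pair. Of all genes 6.47% and 5.99% were called in these pairs, and 3.5% and 2.75% as higher than in midbrain. By the same rule 0 of 9 members differed between striatum and PFC, against 3.14%. At an adjusted p under 0.05 with no fold minimum, 3 of 9 differed between PFC and midbrain (Sall1, Irf8 and Maf), 2 of 9 between striatum and midbrain (Sall1 and Irf8) and 0 of 9 between striatum and PFC, against 6.52%, 7.45% and 0.57% of all genes. Both members of the striatum and midbrain pair passed in 12 of 12 fits that each left out 1 mouse. The count for PFC and midbrain was 0 to 3 over these fits and 0 without mouse 2, where the edgeR adjusted p was 0.114 for Sall1, 0.071 for Irf8 and 0.0647 for Maf. In this pair Sall1 passed in 4 of the 12 fits, Irf8 in 7 (not without mouse 2, 4, 8, 9 or 11) and Maf in 9 (not without mouse 1, 2 or 5). With mouse as a block 1 of 9, Mef2c, passed between striatum and PFC, against 2.89% of all genes. The median log2 fold change of the 9 members was 0.05 for PFC against midbrain and 0.05 for striatum against midbrain, where the median of all genes was 0.01 in both. The libraries hold pools of cells, so that a smaller share of cells with a transcript and less of it in each cell cannot be told apart.

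**Figure D2:**
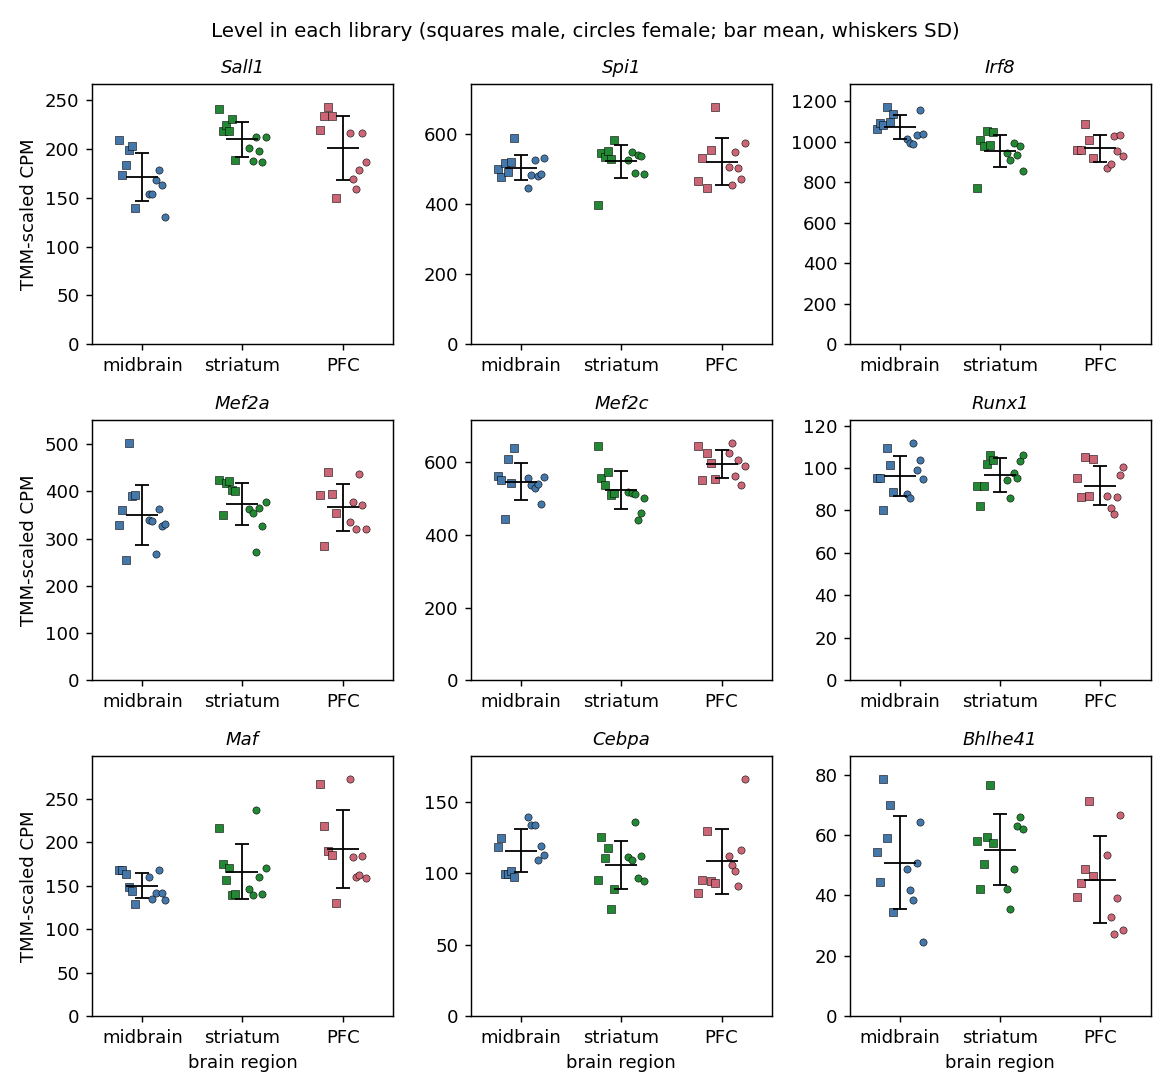
TMM-scaled CPM of each member in every library, by brain region, with squares for male and circles for female mice, the bar at the mean and whiskers of 1 SD. The ranges of all 3 regions overlap for each member, and the midbrain mean is the lowest for Sall1 (171 CPM) and Maf (150.2 CPM) and the highest for Irf8 (1073 CPM). It is also the lowest for Spi1 and Mef2a and the highest for Cebpa, which did not pass the region test.

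Sall1, the repressor that marks the identity of microglia, was lowest in the midbrain. Midbrain libraries ran from 130.3 to 209 CPM with a median of 171, striatum libraries from 187 to 240.4 with a median of 212, and PFC libraries from 149.8 to 243 with a median of 216. The lowest striatum library lay above the median of the midbrain, yet the ranges overlapped in both pairs. Means were 171 ± 24.9 CPM (SD, n = 12) in midbrain, 209.7 ± 17.6 (n = 12) in striatum and 200.5 ± 32.8 (n = 11) in PFC. Sall1 was 1.23-fold higher in striatum than in midbrain (log2 fold change 0.29, SE 0.0696, edgeR adjusted p = 0.00615) and 1.18-fold higher in PFC (0.24, SE 0.0712, adjusted p = 0.036), the latter under the fold minimum. Striatum and PFC did not differ by this test, with a log2 difference of 0.06 and a 95% interval from -0.09 to 0.20. Within mice the difference was regular: Sall1 was higher in striatum than in midbrain in 12 of 12 mice, by a mean of 0.30 ± 0.18 on the log2 scale (SD), and higher in PFC than in midbrain in 9 of 11. The region effect (adjusted p = 0.00896) was 0.0132 without the striatum library of mouse 3, where the striatum stood 0.28 above the midbrain on the log2 scale.

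Irf8, an interferon regulatory factor that macrophages need to develop and that rises further in reactive microglia, ran the other way. Its level was between 991 and 1171 CPM in midbrain (median 1073), between 774 and 1056 in striatum (median 979) and between 872 and 1087 in PFC (median 961). The midbrain mean of 1073 ± 60.6 CPM (SD, n = 12) compared with 955 ± 80.5 (n = 12) in striatum and 967 ± 65.8 (n = 11) in PFC. The lowest midbrain library was still above the medians of the other regions, and the ranges overlapped. Irf8 was lower than in midbrain by 0.17 on the log2 scale in striatum (SE 0.0433, edgeR adjusted p = 0.0127) and by 0.15 in PFC (SE 0.0444, adjusted p = 0.0389), which are 1.12-fold and 1.11-fold and did not reach the fold minimum. The level was lower in striatum than in midbrain in 11 of 12 mice and lower in PFC than in midbrain in 10 of 11. Striatum and PFC differed by -0.02 (95% interval -0.11 to 0.07). Without the striatum library of mouse 3, at 774 CPM the lowest of all, the striatum difference was -0.14 (adjusted p = 0.0169) and the region effect passed at 0.00769, against 0.0149 with it.

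Irf8 and Sall1 ran in opposite order over the regions, so their ratio is also given, with no test, since the ratios here were chosen after the values had been seen. The ratio of Irf8 to Sall1 CPM was 6.38 ± 0.952 in midbrain (SD, n = 12), 4.59 ± 0.595 in striatum (n = 12) and 4.93 ± 0.805 in PFC (n = 11). It was lower in striatum than in midbrain in 12 of 12 mice and lower in PFC than in midbrain in 10 of 11. The ratio of Irf8 to Maf was lower in PFC than in midbrain in 11 of 11 mice, with means of 7.21 in midbrain and 5.27 in PFC. Irf8 relative to Spi1, its partner on shared composite sites, was 2.13 in midbrain, 1.83 in striatum and 1.88 in PFC, and it was lower in striatum in 11 of 12 mice. A ratio of 2 genes in one library does not depend on the scaling between libraries.

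Mef2c, a MADS-box factor that restrains the inflammatory response of microglia and also has strong roles in neurons, was highest in the PFC. Libraries ran from 443 to 639 CPM in midbrain (median 546.0), from 439.9 to 644 in striatum (median 515) and from 538 to 652 in PFC (median 598), and the ranges overlapped throughout. Means were 546 ± 50.4 CPM (SD, n = 12), 524 ± 52.3 (n = 12) and 595 ± 39.6 (n = 11). The PFC lay above the striatum in 11 of 11 mice and above the midbrain in 10 of 11. Mef2c was 1.14-fold lower in striatum than in PFC, a log2 difference of -0.19 (SE 0.0525, edgeR adjusted p = 0.0781), and the PFC stood 0.13 above the midbrain (SE 0.0524, adjusted p = 0.166). The region effect had an adjusted p of 0.0388. The striatum library of mouse 3, whose column is named as PFC, held 644 CPM, the highest striatum value, where the next striatum library held 574. Without it the region effect had an adjusted p of 0.0125 and striatum against PFC of 0.0373. With mouse as a block, striatum against PFC had an adjusted p of 0.0135, and its fold stayed under the minimum.

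Maf, a large MAF factor that helps to hold macrophages in a differentiated, non-dividing state, was higher and more variable in the PFC. Midbrain libraries lay between 129 and 168 CPM with a median of 146, striatum libraries between 139 and 237 with a median of 159, and PFC libraries between 131 and 272 with a median of 184. The mean rose from 150.2 ± 14.7 CPM (SD, n = 12) in midbrain to 192 ± 44.5 (n = 11) in PFC, a 1.28-fold difference (log2 0.36, SE 0.101, edgeR adjusted p = 0.0224), with the striatum between them at 166 ± 31.6 (n = 12). Striatum and PFC differed by -0.21 (SE 0.1, adjusted p = 0.402), a pair that was called on leaving out mouse 6, with a log2 difference of -0.30. PFC was above midbrain in 10 of 11 mice. A few libraries carried much of the spread: the PFC libraries of mice 1 and 2 held 267 and 272 CPM, and the striatum libraries of mice 6 and 3 held 237 and 216, while PFC mouse 11 held 131. The region effect, at an adjusted p of 0.047, was the closest of the 4 to the threshold. It was lost on leaving out any 1 of 8 mice (1, 2, 4, 5, 7, 9, 10 and 12), with adjusted p-values over all 12 such fits from 0.0232 to 0.131, and that of Mef2c was lost on leaving out any 1 of 9 mice (1, 2, 4, 6, 7, 8, 9, 10 and 12), with a range from 0.0143 to 0.108.

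Sall1 and Irf8 kept their region effect whichever mouse was left out, with adjusted p-values from 0.000929 to 0.0433 and from 0.00575 to 0.0304. The striatum call of Sall1 was lost without mouse 12, where the log2 fold change of 0.25 fell under the fold minimum. When the mice numbered 1 to 6 and those numbered 7 to 12 were fitted apart, 0 of the 9 members passed the region test in either set. The within-mouse mean for Sall1 in striatum against midbrain was 0.30 in both sets of mice, for Irf8 -0.16 and -0.18, and for Maf in PFC against midbrain 0.49 and 0.22.

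**Figure D3:**
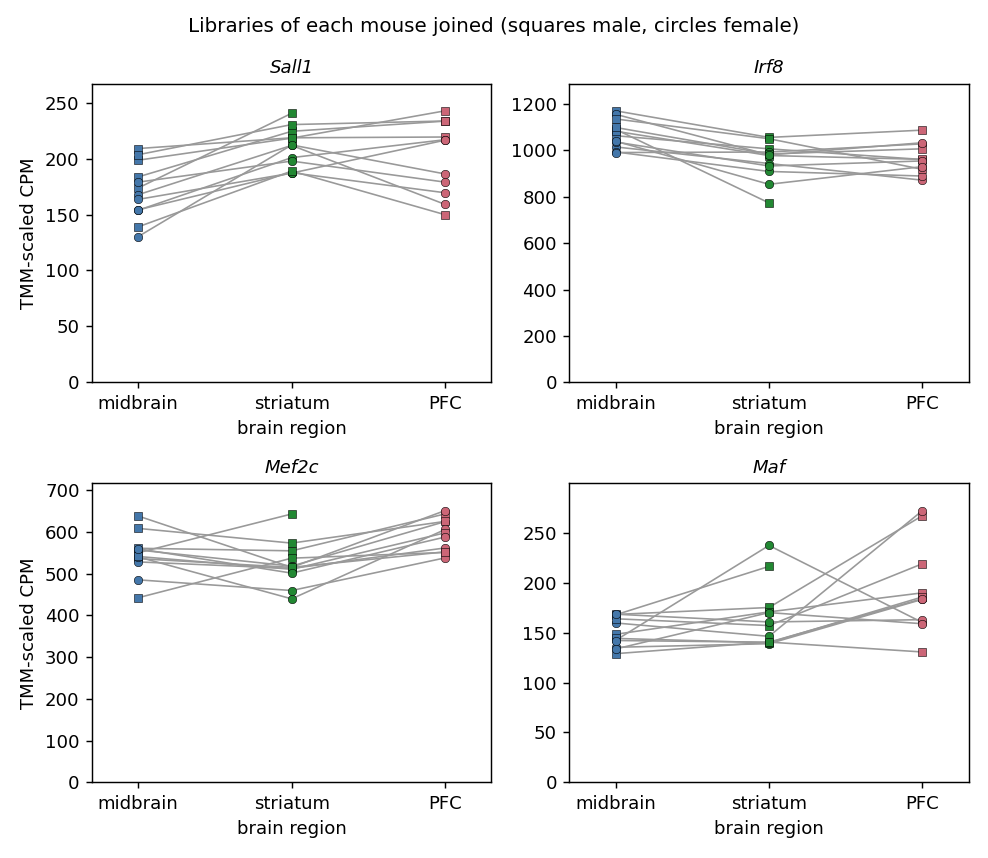
TMM-scaled CPM of the 4 members with a region effect, with the libraries of each mouse joined by a line and squares for male, circles for female mice. Sall1 is higher in striatum than in midbrain in 12 of 12 mice, Irf8 lower in 11 of 12, Mef2c lower in striatum than in PFC in 11 of 11, and Maf is higher in PFC than in midbrain in 10 of 11.

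Markers of other brain cells also differed between regions in the same libraries, not all in the same order. Of the 10 neuron markers, 7 averaged under 1 CPM and 0 were at 0 in every library. Their sum lay between 3.11 and 8.55 CPM in midbrain, 6.56 and 14.9 in striatum and 10.3 and 28.3 in PFC. A region effect was called for 4 of the 10, against 8.89% of all genes. The 8 astrocyte markers summed to 208 to 263 CPM in midbrain, 261 to 429.5 in striatum and 260.1 to 494 in PFC, with 3 of 8 called. Slc1a3 alone averaged 209.2 CPM of a mean sum of 311.0, so it set most of this sum. Gfap, Aqp4, Gja1, Aldh1l1 and S100b had no region effect, and Gfap was highest in midbrain (2.28 CPM). The 7 oligodendrocyte markers had mean sums of 398.2 CPM in midbrain, 476.9 in striatum and 334.9 in PFC, with 1 of 7 called. With the log2 of the neuron sum as an added term, 0 of 9 members passed the region test (adjusted p = 0.102 for Sall1, 0.313 for Irf8, 0.0887 for Mef2c and 0.367 for Maf). The fitted differences themselves were then 0.31 for Sall1 in striatum against midbrain (adjusted p = 0.0543), 0.40 for Maf in PFC against midbrain (adjusted p = 0.399), -0.21 for Mef2c in striatum against PFC (adjusted p = 0.158) and -0.135 for Irf8 in striatum against midbrain (adjusted p = 0.214). The sum and the region moved together, so that in this fit the part of one and of the other could not be told apart. The part of astrocyte or oligodendrocyte RNA was not tested.

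**Figure D4:**
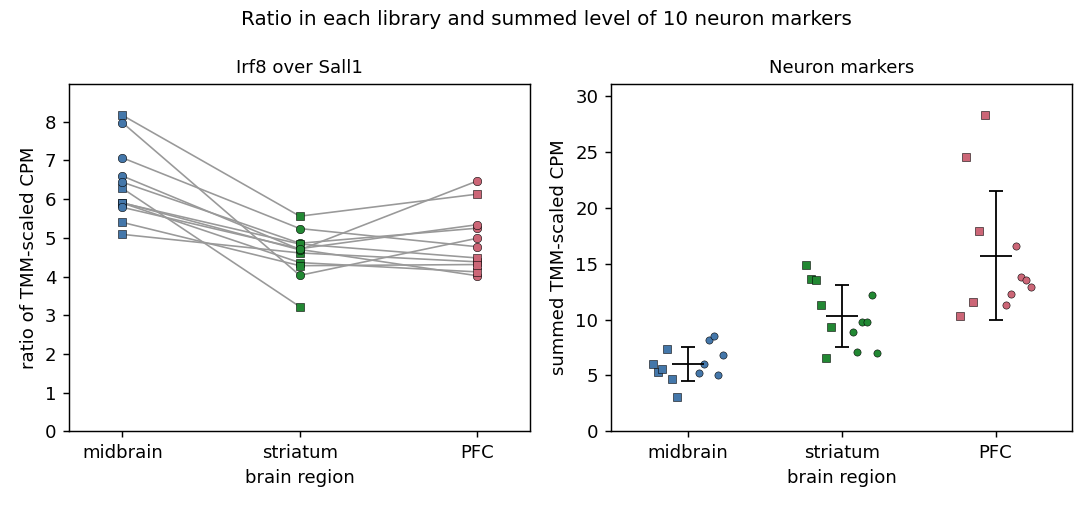
Left, the ratio of Irf8 to Sall1 CPM in each library, with the libraries of each mouse joined; right, the summed CPM of 10 neuron markers in each library, with the mean and 1 SD; squares are male and circles female mice. The ratio averages 6.38 in midbrain, 4.59 in striatum and 4.93 in PFC, and the neuron sum 6.00, 10.3 and 15.7 CPM.

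The other members showed no regional difference that passed the test, and their intervals bound how large one could be. Spi1 stood at 505 ± 36.2 CPM (SD, n = 12) in midbrain, 523 ± 47.3 (n = 12) in striatum and 522 ± 67.3 (n = 11) in PFC, with 95% intervals of the log2 difference from -0.07 to 0.17 in both pairs with the midbrain. Its libraries ran from 448 to 590.4 CPM in midbrain, from 397 to 584 in striatum and from 446 to 677 in PFC. Runx1, a founding factor of blood and of the yolk sac lineage that adult microglia still transcribe, was level at 96.1 ± 9.51, 96.6 ± 7.91 and 91.6 ± 9.24 CPM, and its intervals ran from -0.19 to 0.20 over the 3 pairs. These 2 genes were the most tightly bounded of the 5.

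Mef2a, the close relative of Mef2c, had means of 349 ± 63.3, 373 ± 44.5 and 366 ± 49.6 CPM in midbrain, striatum and PFC, with values from 255 to 502 in midbrain alone. It was higher in striatum than in midbrain in 11 of 12 mice, but by a fitted log2 difference of only 0.09 (SE 0.0789, edgeR adjusted p = 0.569). Cebpa, the C/EBP factor of myeloid progenitors, had means of 116 ± 14.9, 106 ± 16.8 and 108 ± 22.9 CPM, and lay lower in PFC than in midbrain in 9 of 11 mice, including 5 of 5 among mice 1 to 6 and 4 of 6 among mice 7 to 12. Bhlhe41, a basic helix-loop-helix repressor of the circadian clock family that acts in resident macrophages, had means of 50.8 ± 15.4, 55.1 ± 11.7 and 45.2 ± 14.3 CPM. Its intervals were the widest of the 9, from -0.04 to 0.60 for striatum against PFC, so that a 1.2-fold difference was not detectable with this spread. A transcribed region on the opposite strand shares 19.048% of its exon bases, and the strand used in counting is not given in the sources used here. The same limit holds for Maf, of whose exons an antisense gene shares 5.339%.

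**Figure D5:**
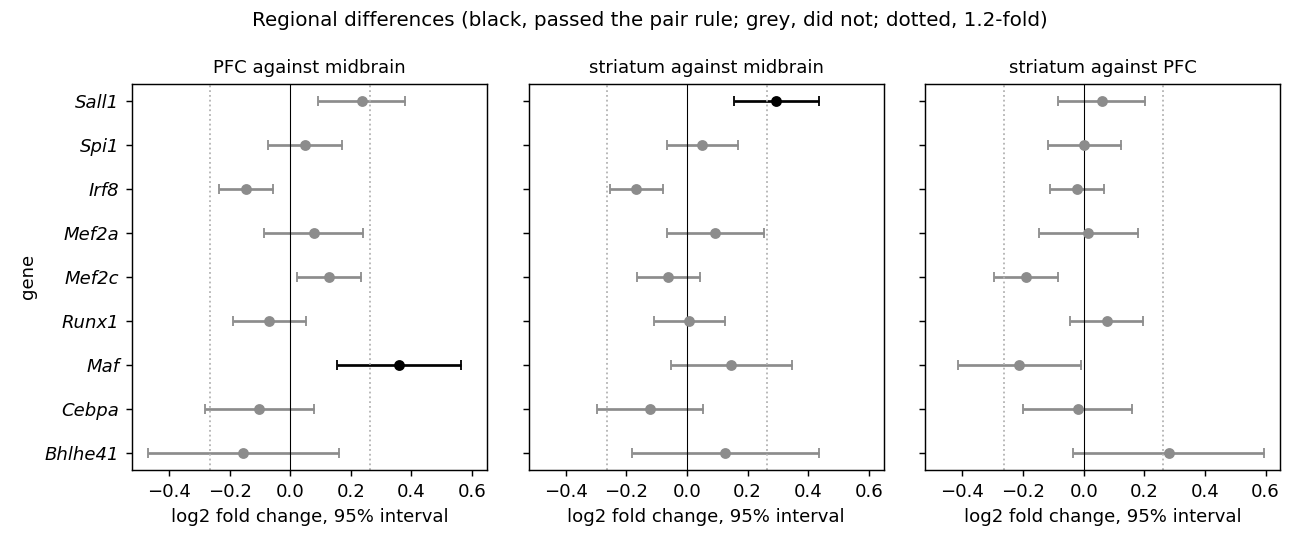
Log2 fold change of each member in the 3 pairs of regions with 95% intervals from the edgeR fit, in black where the post hoc rule was passed and in grey where it was not, with dotted lines at 1.2-fold. Only Sall1 in striatum against midbrain (0.29) and Maf in PFC against midbrain (0.36) are black, and the intervals of Irf8 lie below 0 in both pairs with the midbrain.

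Between the sexes 0 of the 9 members were called, against 4.13% of all genes (edgeR unadjusted p under 0.05 with a fold over 1.2). At an unadjusted p under 0.05, with no fold minimum, 3 of 9 members passed, against 8.02% of all genes, in a fit that counts the 2 or 3 libraries of a mouse as separate samples. With the counts summed per mouse, 6 males against 6 females, 2 of 9 passed, against 4.29% of all genes. The edgeR unadjusted p was then 0.033 for Sall1 (log2 difference -0.18), 0.0391 for Cebpa (0.17) and 0.0777 for Mef2a (-0.16), with an adjusted p of 1 for each. Over libraries, the fitted level of Sall1 in females was lower by 0.19 on the log2 scale (1.14-fold, SE 0.0577, unadjusted p = 0.0024 in the edgeR fit, adjusted p = 0.198). Averaged over its regions, a male mouse held between 159 and 222 CPM of Sall1 (median 215) and a female between 170.3 and 190.5 (median 182), and male mouse 11 was the lowest of all 12. Over libraries the female minus male log2 difference was -0.16 for Mef2a (edgeR unadjusted p = 0.0211, adjusted p = 0.472), and 0.18 for Cebpa (unadjusted p = 0.0175, adjusted p = 0.441). The mouse means of males and females overlapped for these 3 genes. For Bhlhe41 this difference was -0.24 (edgeR unadjusted p = 0.0621), and it was called on leaving out mouse 1, 10 or 11, with a range over all 12 such fits from -0.37 to -0.13. Within single regions 0 of 9 were called in midbrain, striatum or PFC, against 4.84%, 2.28% and 5.29% of all genes. With no fold minimum, the edgeR unadjusted p was under 0.05 for Sall1 in midbrain (log2 difference -0.22, p = 0.0338). The same held in striatum for Mef2a (-0.23, p = 0.0478) and Mef2c (-0.18, p = 0.0178). None of these passed after adjustment.

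No member was called for an effect of sex that differed between regions. The region by sex interaction had an unadjusted p between 0.22 and 0.927 for the 9 members, and 0 of 21236 genes passed at an adjusted p under 0.05 by edgeR, where 632 genes (2.98%) had an unadjusted p under 0.05 and DESeq2 called 1 gene (0.00471%). For Sall1 the log2 difference between females and males was -0.22 in midbrain, -0.14 in striatum and -0.20 in PFC, and for Irf8 it was -0.09, -0.06 and -0.05.

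Members did not form a block that rose and fell together from mouse to mouse. Each of the 12 mice had 1 value per member, its mean deviation from the means of its groups of one region and sex. Over the 36 pairs of members, Pearson's r of these mouse values ran from -0.772 to 0.642 with a median of 0.04, and 19 were positive. None passed after adjustment, and 3 had an unadjusted permutation p under 0.05. The lowest was Spi1 with Maf (r = -0.772, permutation p = 0.0041, adjusted p = 0.148; Spearman's rho -0.615, permutation p = 0.0375), and r was -0.324 without the 2 mice farthest from the median. In mice 1 to 6 it was -0.519 and in mice 7 to 12 -0.932.

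Each member had other genes whose level followed its own over the 35 libraries, given here as a description, since libraries share mice, depth and composition. Among 8606 genes, the pattern of Mef2a was most like that of Pik3cg (r = 0.877), the catalytic subunit of a leukocyte PI3 kinase, and of Cep68 (0.834). Maf was followed by Qk (0.869), an RNA-binding protein that steers splicing, and by Zbtb18 (0.861). The genes most like Mef2c were Mindy2 (0.805) and Nr3c1 (0.803), the glucocorticoid receptor. Irf8 was followed by Cited2 (0.744), a CBP/p300-binding co-regulator, and by Klf6 (0.725), a zinc finger factor induced by stress, both higher in midbrain, where Klf6 averaged 1578 CPM against 939.7 in striatum and 1109 in PFC. Spi1 had Efhd2 (0.781) and Limd2 (0.757), Bhlhe41 had Rnf26 (0.786) and Sh2d3c (0.77), and Cebpa had Stx12 (0.768) and Dusp11 (0.692). The weakest likeness was found for Sall1, with Zfp738 (0.738) and Pskh1 (0.719), and for Runx1, with Foxp1 (0.699) and Chd7 (0.675).

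Among 39 relatives of the members by family, 34 were in the table and 7 had a region effect, against 8.89% of all genes. Hes1, the Notch-responsive repressor related to Bhlhe41, differed most in its test: it stood at 20.6 ± 7.86 CPM in midbrain, 39.3 ± 19.7 in striatum and 50.4 ± 21.3 in PFC (log2 fold change 1.33 for PFC against midbrain, SE 0.241, edgeR adjusted p = 0.000287). Bhlhe40, the paralog of Bhlhe41, averaged 2.5 CPM against 50.5 for Bhlhe41 and was lower in PFC (1.26) than in midbrain (3.5 CPM). Sall3, the relative of Sall1, was lower in PFC, at 47.9 CPM, than in striatum, at 60.9. Irf7, the IRF of the interferon response, was higher in midbrain at 19.5 ± 13.3 CPM than in striatum (10.1) and PFC (9.54). Maff and Cebpg were lowest in striatum, at 3.79 and 128 CPM, and Spic, at a mean of 0.212 CPM, lay too near the depth limit for a fold to be given. The median log2 fold change of the 34 was -0.06 for PFC and -0.09 for striatum, both against midbrain.

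Of 24 other transcription factors of macrophages and their progenitors, 22 were in the table and 3 had a region effect. The share was 8.89% of all genes and 14.6% of those at least as abundant as Bhlhe41. Klf6 and Batf3, a factor of dendritic cells, were higher in midbrain, by 0.75 and 0.30 on the log2 scale over striatum (edgeR adjusted p = 1.57e-05 and 0.0336), and Rxra, the shared partner of nuclear receptors, was lower there, with means of 19.8 CPM in midbrain, 25.0 in striatum and 26.4 in PFC. Of the 10 receptors, ligands and SMADs of the CSF1 and TGF-beta signals on which microglia depend, 1 had a region effect, near the share of all genes. This was Csf1r, the receptor that microglia need to survive. It averaged 7110.4 CPM in midbrain and 8906 in striatum (log2 0.33, SE 0.0842, edgeR adjusted p = 0.0125). The 10 immediate early genes, induced when tissue is dissociated, had 0 region calls, against 8.89% of all genes. They were high in every library, with sums from 19734.1 to 45021.4 CPM. The part of dissociation in the levels of the members was not tested.

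Of 19 genes known as targets of these factors or dependent on them, 7 had a region effect, against 8.89% of all genes. They did not move in one direction. Against the midbrain, 1 was called higher and 4 lower in PFC, and 1 higher and 3 lower in striatum. Of all genes 5.99% and 6.47% were called in these pairs. Cybb, the NADPH oxidase subunit that PU.1 and IRF8 activate, averaged 19.1 ± 19.2 CPM in midbrain, 4.69 ± 2.94 in striatum and 2.05 ± 1.49 in PFC. Itgb2, the integrin chain activated by PU.1, was higher in midbrain (686 ± 77.5 CPM) than in striatum (535 ± 37.4) and PFC (558 ± 49.8). Csf2ra, the GM-CSF receptor subunit, stood at 48.6, 38.1 and 26.9 CPM in the same order. Slc2a5, a fructose transporter that depends on SALL1, was lowest in midbrain, and its fold stayed under 1.2. It stood at 1124.5 ± 110.1 CPM there, 1272 ± 82.8 in striatum and 1327 ± 70.3 in PFC. Of the other listed genes dependent on SALL1, P2ry12 had a region effect (edgeR adjusted p = 0.00637) and was also lowest in midbrain. Tmem119 (edgeR adjusted p = 0.298) and Olfml3 (0.906) had none. Ciita, listed for IRF8 beside Cybb, did not pass the region test either (edgeR adjusted p = 0.0905). It averaged 0.674 ± 1.13 CPM in midbrain, 0.149 in striatum and 0.166 in PFC. At levels this near the depth limit a difference could be missed. Whether targets followed their factors was not tested. One midbrain library, that of mouse 6, held 123 CPM of summed markers of border macrophages, where the median of the midbrain was 6.86 CPM, and its part in the values of Cybb and Irf7 was not tested.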

How the data were processed

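The values are raw counts per Ensembl gene as deposited: the authors trimmed the reads, used HISAT2 with GRCm38, and left out genes of low expression. The submitters' processing notes name FastQC, Trimmomatic and HISAT2, and the counting tool and strand setting are not given in the sources used here. All 35 libraries were used, each assigned by its label. Symbols and exon lengths came from GENCODE M21, and promoters from RefSeq. Counts were scaled with TMM factors in edgeR 4.0.16 (R 4.3.3) and fitted by robust quasi-likelihood. An additive model of region and sex gave the region, pair and sex tests, and a model with a term for every combination of the 2 gave sex within a region and the interaction. P-values were adjusted over all 21236 genes. A region or interaction call needed an adjusted p under 0.05, a pair a region call with an unadjusted p under 0.05 and a fold over 1.2, and sex the latter 2 conditions. The unadjusted p in the pairs and for sex was a choice made here. Log2 CPM used a prior count of 2. The likeness between genes was Pearson's r of log2 CPM over the 35 libraries among genes averaging at least 8 CPM.

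Mouse numbers were read from the sample titles. Libraries of one mouse deviated together from the means of their groups (mean r = 0.347 over 34 pairs against -0.0675 over 170 pairs of different mice, 8623 genes, mean over 0.1 in 12 of 12 mice). Alternatives were DESeq2 1.42.0, its size factors in edgeR, filterByExpr, limma-voom (limma 3.58.1), mouse as a replicate block, a neuron marker term, mice 1 to 6 or 7 to 12 alone or as a term, adjusted p-values in the pairs, counts summed per mouse, and libraries or mice left out. The fits were also run on simulated counts with a known change in PFC, drawn with no effect of mouse. That run cannot show how the p-values behave where libraries of one mouse deviate together. The members, the lists and the tests were chosen with earlier results of these data known. Of the lists, those genes with a region effect are named, up to 4 per list by lowest p, and the 2 genes most like each member. A few other genes of the target and astrocyte lists are named beside them as a limit. The region and sex models had no term for mouse, so the 2 or 3 libraries of a mouse entered as separate samples, and p-values for sex over libraries do not measure the spread between mice alone.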

Additional observations from a re-analysis of the deposited data

Results flagged for a closer look

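In 11 of 54 groups of 5 or 6 libraries of one region and sex, 1 library stood apart from the rest by Dixon's test at the 95% level, where chance gives about 2.7 (1 in 20). The striatum library of male mouse 3, whose column name and label disagree, was the lowest of its group for Spi1, at 397 CPM against 530 for the next, and for Irf8, at 774 against 978. Male mouse 11 was the lowest for Sall1 in PFC, at 149.8 CPM against 219, and the highest for Spi1 in midbrain, at 590.4 against 521. Maf was highest in the female striatum of mouse 6, at 237 CPM against 170, and in the female PFC of mouse 2, at 272 against 184. Cebpa stood apart in both sexes in PFC, at 129.6 CPM in male mouse 7 against 95.2 and at 166 in female mouse 12 against 116. Irf8 was highest in the female midbrain of mouse 10, at 1156 CPM against 1040. Mef2a was lowest in the male striatum of mouse 1, at 351 CPM against 402, and Bhlhe41 highest in the male PFC of mouse 9, at 71.2 CPM against 48.6.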

How the results depend on the processing

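The count of members with a region effect (4) was 4 with DESeq2, limma-voom, the mouse number as a replicate block, a term for mice 1 to 6 against 7 to 12 and without the striatum library of mouse 3. It was 3 with DESeq2 size factors and filterByExpr, where Maf had adjusted p-values of 0.0509 and 0.0511, and 0 with the neuron marker term and in either set of 6 mice, 1 to 6 or 7 to 12. Under the replicate block the adjusted p-values were 0.000628 for Sall1, 0.00122 for Irf8, 0.00728 for Mef2c and 0.0104 for Maf, so that the pairing changed no region call of a member and no pair call that needed the fold minimum. By adjusted p with no fold minimum Mef2c in striatum against PFC passed with the block (0.0135) and not in the main edgeR fit (0.0781). It also passed with DESeq2 (0.0265), limma-voom (0.0191) and the term for mice 1 to 6 against 7 to 12 (0.0372). It did not pass with DESeq2 size factors (0.0743), filterByExpr (0.0667), the neuron term (0.158) or either set of mice (0.444 and 0.23). With the block the share of all genes with a region effect was 14.0% in place of 8.89%. The other listed transcription factors with a region effect were 10, and 3, 4 and 4 with the neuron term and in the 2 sets of mice. For PFC against midbrain 1 member was called, 3 by adjusted p with no fold minimum, and 0 with DESeq2 size factors, filterByExpr, the neuron term and either set of mice. For striatum against midbrain 1 was called, 2 by adjusted p, and 0 with the neuron term and either set of mice. Sex had 0 calls and 1 in mice 1 to 6, in the PFC 1 in mice 1 to 6 and in midbrain 1 in mice 7 to 12. The cause of these changes was not tested, except that fits of one set of mice held fewer samples.

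Leaving out each mouse, or the striatum library of mouse 3, gave 2 to 4 members with a region effect, 0 to 1 for PFC against midbrain, striatum against midbrain, striatum against PFC, sex and sex in midbrain or PFC, and 5 to 11 of the other factors. The log2 differences then ran over 0 for striatum against PFC in Cebpa (-0.074 to 0.067), Irf8 (-0.042 to 0.009), Mef2a (-0.035 to 0.041) and Spi1 (-0.023 to 0.038), for striatum against midbrain in Runx1 (-0.015 to 0.021), and for sex in Maf (-0.119 to 0.010), Runx1 (-0.044 to 0.013) and Spi1 (-0.078 to 0.008). The other differences that changed sign had not passed a test in the main fit. With the neuron term these were Spi1 in PFC against midbrain (-0.022), and Mef2a (-0.039) and Cebpa (0.015) in striatum against PFC. In mice 1 to 6 they were Mef2c (0.044), Runx1 (-0.037) and Bhlhe41 (-0.139) in striatum against midbrain, Cebpa in striatum against PFC (0.218), and Spi1 (0.012) and Runx1 (0.002) for sex. In mice 7 to 12 they were Cebpa in PFC against midbrain (0.105), Mef2a in striatum against midbrain (-0.007) and against PFC (-0.019), and Maf for sex (0.043). Spi1 in striatum against PFC was -0.001 with filterByExpr. With at least 1186 counts of each member in every library, counting error was small for all members. The parts of the mouse, of dissociation and sorting, and of amplification in the remaining spread were not tested.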
